A study of Homo sapiens with 4 samples.

Results

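The guanylate-binding proteins (GBP) and the MX proteins, 9 interferon-induced GTPases in all, were followed in MCF10A.B2 mammary epithelial cells with and without a shRNA against PAK1. The rule for members was the gene name, GBP1 to GBP7, MX1 and MX2, and it used no measured value, although the family was picked with earlier results of these data known. All 9 genes were present on the array, by 10 of its 34127 probes other than controls, among 27193 gene names.

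GBP and MX proteins are large GTPases of the dynamin superfamily, and their genes are switched on by interferons. Type I and type III interferons signal through JAK kinases to a complex that holds STAT2 and IRF9 and binds the interferon-stimulated response element, while interferon gamma acts mainly through the gamma-activated site. GBP proteins assemble on intracellular bacteria and on the vacuoles of pathogens, MX1 restrains influenza and other RNA viruses, and MX2 restrains HIV and herpesviruses.

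The data came from 2 control and 2 PAK1 shRNA samples, each hybridized to its own Agilent array in 1 colour (Cy3). Both groups were MCF10A.B2, a derivative of the non-tumorigenic human breast epithelial line MCF10A that carries a chimeric ErbB2 (Her2) receptor activated by the dimerizer AP1510. The control samples, labelled Ctrl, were described as wild type for PAK1, and the PAK1 shRNA samples expressed a Tet inducible shRNA against PAK1. All 4 samples were starved of serum for 3 h and treated with AP1510 for 15 min before RNA extraction. The sources used here do not give the agent that induced the shRNA, whether the lines were clones, or whether replicates came from separate cultures, so p-values measure only the spread between these samples, which may be technical. No sample with a non-targeting shRNA was analysed here, so an effect of losing PAK1 and an effect of expressing a shRNA cannot be told apart. The labels do not say whether the control cells carried the shRNA construct without induction, so a difference between lines and a difference by induction cannot be told apart either. The series text speaks of cells from tumors, whereas the sample labels name the cell line, which was followed.

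Between 78.9% and 83.1% of probes were well above background on an array. PAK1, the target, had a normalized log2 intensity of 11.19 and 11.27 on the control arrays and of 10.45 and 10.51 on the PAK1 shRNA arrays, a change of -0.75 on the log2 scale (standard error 0.08, limma adjusted p = 0.000176). All 8 basal epithelial markers, such as KRT5 and TP63, were well above background on all 4 arrays, and 2 were higher, 4 were lower and 2 did not pass the test. Of 8 leukocyte markers, 7 were matched on the array and 3 were higher in PAK1 shRNA cells, where 31.1% of all genes tested were higher. CD14 led with a log2 fold change of 1.32. The log2 of the summed level of the 7 went from between 14.63 and 14.75 to between 15.76 and 15.85. CD14 was the brightest of them, with 14.21 and 14.15 in control cells and 15.44 and 15.56 in PAK1 shRNA cells. PTPRC, which defines leukocytes, was well above background on all 4 arrays, had log2 intensities between 7.65 and 7.85 and did not pass the test. Of 5 endothelial markers, 1 was higher and 2 were lower. PECAM1 had the largest change of the list, with a log2 fold change of -1.56. The other lower one, TEK, had -0.33 and was well above background on the control arrays only. VWF was higher, with 0.37. The log2 of the summed level of the 5 went from between 10.15 and 10.20 to between 9.85 and 9.89. The part of these shifts in the results below was not tested. In bulk RNA, fewer cells of a type and less RNA per cell cannot be told apart.

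Promoter stretches are shown for the 4 members in which a short element of interferon-induced genes was found. RefSeq windows (GRCh38.p14) running from 250 bases before to 50 bases after a transcription start were matched for 6 of the 9 members, in 8 windows, with 3 of them for alternative starts of MX1. GBP2, GBP5 and MX2 had no window. The core of the interferon-stimulated response element was searched on both strands as GAAA, any 2 bases, and GAAA again, which reads TTTC, any 2 bases, TTTC on the other strand. It was held by 5 of the 8 windows, belonging to GBP1, GBP3, GBP4 and MX1, and by 3.57% of all 35116 windows. The capitals below mark the element, on the strand of the gene.
GBP1, chr1:89065301-89065360, minus strand, element at bases -127 to -118 from the start: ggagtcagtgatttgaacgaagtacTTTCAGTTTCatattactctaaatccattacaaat
GBP3, chr1:89022845-89022874, minus strand, element at bases 3 to 12: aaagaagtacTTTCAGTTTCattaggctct
GBP4, chr1:89198927-89198956, minus strand, element at bases -4 to 6: gtgcatgtccTTTCAATTTCggttctcaca
MX1, chr21:41420559-41420588, plus strand, element at bases 12 to 21: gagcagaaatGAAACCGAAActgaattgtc

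GBP1 and GBP3 held the same element, TTTCAGTTTC, and 60 of 85 bases in a stretch that includes the element were identical between the genes. A further match lay in the third MX1 window, at bases -196 to -187. The windows of GBP6 and GBP7 held no match to these letters. The gamma-activated site, searched as TTCNNNGAA, which reads the same on both strands, was present in 2 of the 8 windows, 1 of GBP3 and 1 of MX1, and in 7.66% of all windows. In the MX1 window it partly overlapped the response element. These matches describe the sequence and were not tested for binding.

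Of the 9 members, 8 were tested and 7 were higher in PAK1 shRNA cells, namely GBP1, GBP2, GBP3, GBP4, GBP5, MX1 and MX2, while none was lower. Their levels rose between 4.74-fold for MX1 and 183-fold for MX2. GBP6 gave a different answer with each of its probes, and GBP7 was near background. Changes were widespread on these arrays, since 31.1% of the 22001 genes tested were higher and 31.8% were lower at an adjusted p under 0.05 (limma with Benjamini-Hochberg adjustment). All 7 genes were higher with a log2 fold change of at least 2, as were 2.72% of the 22001 genes tested. Both PAK1 shRNA arrays lay above both control arrays for these 7 members, and for 42.2% of genes tested. Over the 8 tested members the log2 fold changes had a median of 3.86, against 0.02 over all genes. For any single gene, the smallest p that an exact permutation test (two-sided) allows with 2 arrays a group is 0.333, so the adjusted p-values rest on the spread that limma shares across genes.

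**Figure D1:**
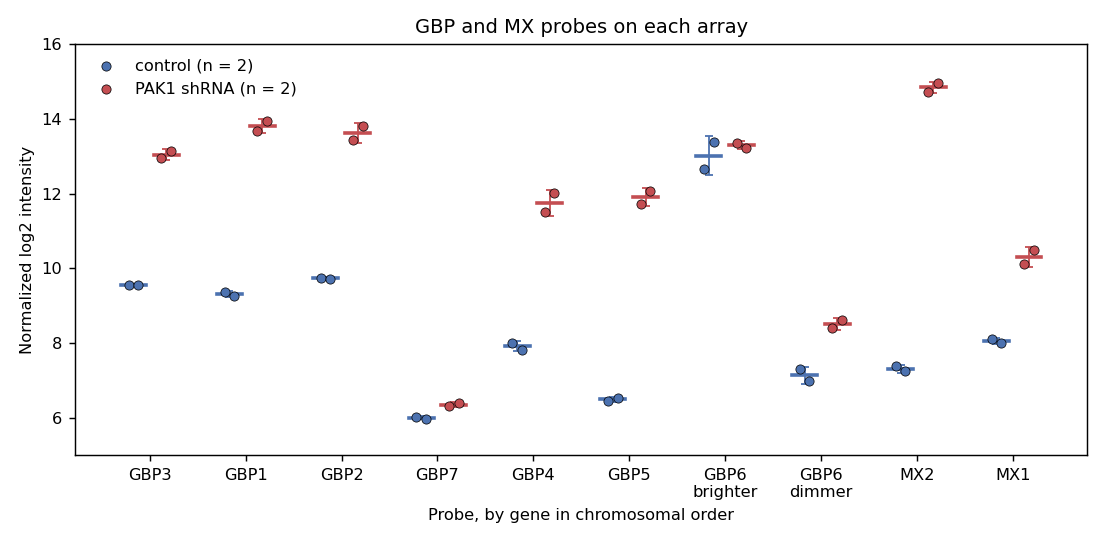
Normalized log2 intensity (vertical axis) of the 10 GBP and MX probes on each array, in the order of the genes along chromosomes 1 and 21. Points are arrays, wide bars are group means and error bars are SD (n = 2 per group); the groups are far apart for GBP1 to GBP5, MX1 and MX2, overlap for the brighter GBP6 probe, and lie close to background for GBP7.

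GBP1, the founding member of the family, which coats cytosolic bacteria, had log2 intensities of 9.36 and 9.26 on the control arrays and of 13.68 and 13.93 on the PAK1 shRNA arrays. The groups lay far apart, by 4.49 on the log2 scale (standard error 0.10, limma adjusted p = 5.17e-07), or 22.5-fold. Its probe lies on chromosome 1 from 89518789 to 89518848 (hg19, minus strand).

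GBP2, a lipid-modified GBP that joins GBP1 on membranes, had 9.75 and 9.71 in control cells and 13.43 and 13.81 in PAK1 shRNA cells. GBP3, a close relative of GBP1, had 9.55 and 9.56 in control cells and 12.94 and 13.15 in PAK1 shRNA cells. In both genes the control arrays nearly coincided and both PAK1 shRNA arrays lay well above them. GBP2 differed by 3.89 on the log2 scale (standard error 0.13, limma adjusted p = 1.57e-06) and GBP3 by 3.49 (standard error 0.09, limma adjusted p = 7.65e-07). These were rises of 14.8-fold and 11.2-fold.

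GBP4 had log2 intensities of 8.01 and 7.83 on the control arrays and of 11.51 and 12.00 on the PAK1 shRNA arrays. The PAK1 shRNA arrays differed from each other more for GBP4 than for any other member in the fit, with an SD of 0.35, and still lay far above the controls. The difference was 3.84 on the log2 scale (standard error 0.16, limma adjusted p = 4.50e-06), or 14.3-fold, and between 8.16-fold and 20.1-fold over the other settings.

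GBP5, which is known to promote assembly of the NLRP3 inflammasome and to lower the infectivity of HIV particles, was the dimmest of the tested members in control cells. Its spot gave a mean signal of 76.2 and 68.3 units on the control arrays over a local background of 41 and 38 units, and of 2846 and 3597 units on the PAK1 shRNA arrays. The normalized log2 intensities were 6.45 and 6.54 in control cells and 11.73 and 12.08 in PAK1 shRNA cells, so the groups were far apart. The difference was 5.41 on the log2 scale (standard error 0.12, limma adjusted p = 4.89e-07), or 42.7-fold. The size of the rise ran from 15.5-fold with normexp fitted on all spots to 68-fold with a smaller normexp offset of 16. It was 177-fold with the processed signal of the scanner software scaled to its 75th percentile, where signal and normalization both differed.

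MX2 rose more than any other member. Its log2 intensities were 7.39 and 7.24 in control cells and 14.72 and 14.95 in PAK1 shRNA cells, from a spot signal of 191.9 and 135.5 units to one of 22610 and 27400 units. The groups lay farther apart than for any other member, and the spot was not saturated on any array. The difference was 7.52 on the log2 scale (standard error 0.10, limma adjusted p = 1.90e-07), or 183-fold, and between 82.4-fold and 332-fold over the other settings. It ranked 13 among the log2 fold changes of all 22001 genes tested.

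MX1, the neighbour of MX2 on chromosome 21 and the classical blood marker of type I interferon activity, rose least of the 7. Its log2 intensities were 8.11 and 7.99 in control cells and 10.11 and 10.48 in PAK1 shRNA cells, again without overlap. The difference was 2.24 on the log2 scale (standard error 0.13, limma adjusted p = 1.46e-05), or 4.74-fold, and between 3.13-fold and 6.33-fold over the other settings. The MX1 probe lies at 42831014 to 42831073 and the MX2 probe at 42780501 to 42780560 of chromosome 21 (hg19, plus strand). Each gene had a single probe and each probe a single spot.

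**Figure D2:**
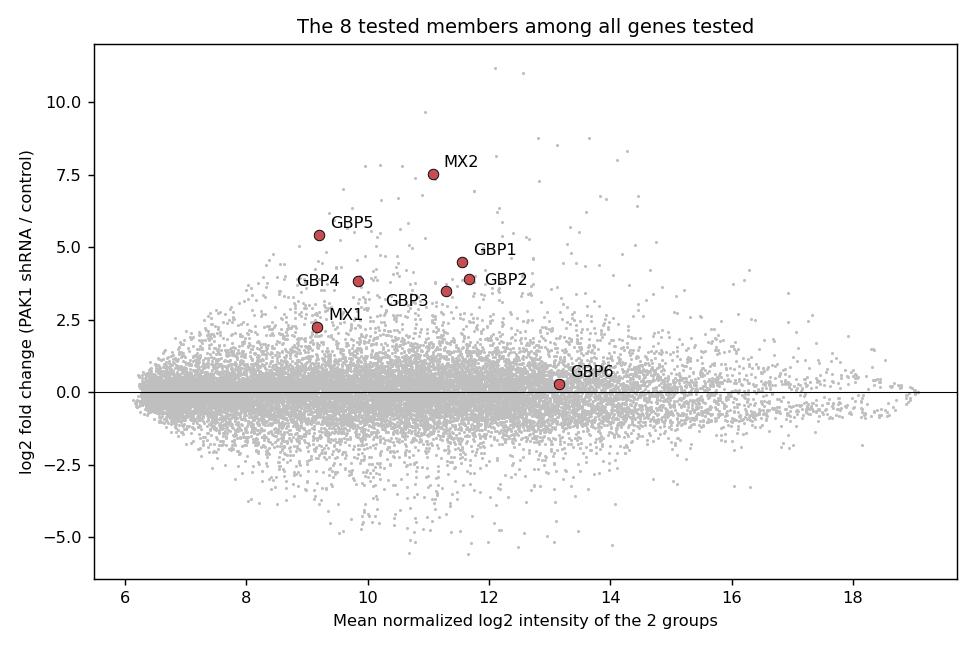
log2 fold change of PAK1 shRNA over control (vertical axis) against mean normalized log2 intensity (horizontal axis) for the 22001 genes tested in grey and the 8 tested members in red. MX2, GBP5 and GBP1 stand far above the bulk of the genes, and GBP6, shown by its brighter probe, lies within it.

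The order of the log2 fold changes was MX2, GBP5, GBP1, GBP2, GBP4, GBP3 and MX1. Taking each PAK1 shRNA array against each control array, the difference ran from 7.33 to 7.71 for MX2, from 5.19 to 5.64 for GBP5 and from 4.32 to 4.67 for GBP1, with no overlap between these genes. It ran from 3.68 to 4.10 for GBP2, from 3.49 to 4.18 for GBP4 and from 3.38 to 3.60 for GBP3, so GBP4 could not be ordered against either of the others. MX1, from 2.00 to 2.49, lay below the rest. MX2 had the largest and MX1 the smallest log2 fold change of the 7 in each of 20 settings, the reported one included. GBP5 lay above GBP1 in 19 of them, the exception being normexp fitted on all spots. Settings that changed only the filter, probe rule, test, threshold or replicate block left these log2 fold changes unchanged, so the order was fixed there.

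GBP6 was measured by 2 probes that disagreed. The brighter probe, on chromosome 1 from 89851275 to 89851334 (hg19, plus strand), had log2 intensities of 12.65 and 13.38 in control cells and of 13.36 and 13.22 in PAK1 shRNA cells. The groups overlapped, with a difference of 0.28 on the log2 scale (standard error 0.22, limma adjusted p = 0.309). The dimmer probe, from 89853648 to 89853707, had 7.30 and 6.98 in control cells and 8.39 and 8.62 in PAK1 shRNA cells. With each probe as its own feature, a fit chosen after these values were seen, it differed by 1.37 on the log2 scale (standard error 0.13, limma adjusted p = 7.86e-05), or 2.59-fold, and between 1.76-fold and 4.28-fold over the other settings. The dimmer probe's groups did not overlap. The SD between control arrays was 0.52 for the brighter probe and 0.23 for the dimmer one.

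The letters of the brighter GBP6 probe were not particular to GBP6. It shared a run of at least 20 bases, on either strand, with 7 other probes of the array, whereas the other 9 member probes shared such a run with none. Whether the brighter probe measured transcripts other than GBP6 was not tested. The value for GBP6 by the brightest probe is therefore given as a value of that probe. The log2 fold change averaged over both probes was 0.82 (limma adjusted p = 0.0002).

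GBP7 was not well above background on either control array and was so on 1 of 2 PAK1 shRNA arrays, which left it out of the test. Its log2 intensities were 6.03 and 5.97 in control cells and 6.31 and 6.40 in PAK1 shRNA cells. The PAK1 shRNA arrays lay slightly above the controls. The rise between the group means was 1.28-fold. The bound for dim probes gave the same value, since the probe's control level was not below the lowest signal that counted as measured. It is thus an estimate near background and not a lower limit. Without the filter on dim probes, its log2 fold change was 0.35 (standard error 0.08, limma adjusted p = 0.00885).

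The 7 GBP genes lie side by side on chromosome 1 and the MX genes on chromosome 21, so the genes next to them were set beside the members. Of 12 flanking genes, 6 were higher, 2 were lower and 4 did not pass the test. The shares higher and lower over all genes tested were 31.1% and 31.8%. The median log2 fold change of the 12 was 0.14. GTF2B, a general transcription factor gene on the GBP3 side of the cluster, had a log2 fold change of 1.25 (standard error 0.08), which lay below each of GBP1 to GBP5. RIPK4, a keratinocyte kinase gene beyond MX1, had -1.79 (standard error 0.12). FAM3B and TMPRSS2, which border the MX pair, had -0.09 (standard error 0.12) and -0.19 (standard error 0.07) and did not pass the test. A pseudogene of GBP1 at the far end of the cluster (LOC400759 on the array), named after its values were seen, had log2 intensities of 6.52 and 6.64 in control cells and of 9.71 and 9.80 in PAK1 shRNA cells, a difference of 3.17 on the log2 scale (standard error 0.08). GBP genes and this pseudogene resemble each other in sequence, and signal shared between their probes was not measured beyond the runs of 20 bases above.

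**Figure D3:**
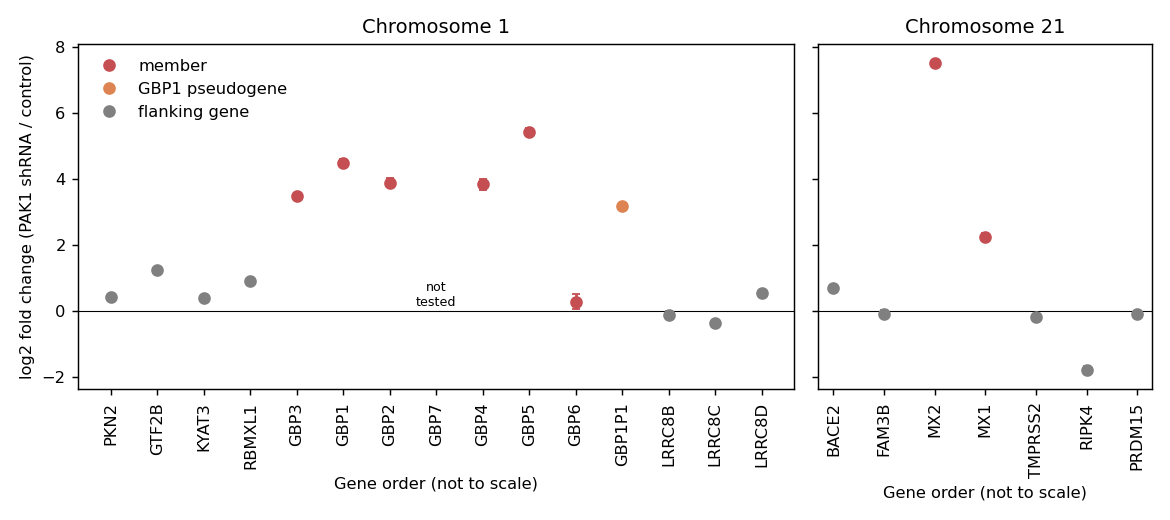
log2 fold change of PAK1 shRNA over control (vertical axis) for the GBP cluster on chromosome 1 and the MX pair on chromosome 21 with their flanking genes, in chromosomal order and not to scale; error bars are standard errors from limma. GBP1 to GBP5, the GBP1 pseudogene, MX1 and MX2 stand above their flanking genes, GBP6 is shown by its brighter probe, and GBP7 was not tested.

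The ligands and receptors upstream of these genes were taken from a list of 15, of which 11 were tested. In PAK1 shRNA cells 9 were higher, 1 was lower and 1 did not pass the test, where 31.1% of all genes tested were higher and 31.8% lower. Among the 9, IL28B was well above background on no control array and IFNB1, the gene of interferon beta, on 1 of 2, so both passed the filter on dim probes only through the group in which they were high. The type III interferon IL28A had log2 intensities of 8.05 and 8.02 in control cells and 15.87 and 16.53 in PAK1 shRNA cells, a rise of 8.16 on the log2 scale (standard error 0.20). IL29, another type III interferon, rose by 7.82 (standard error 0.21). IL28A and IL28B are close paralogs whose probes may share signal. IFNG, the gene of interferon gamma, named because GBP genes respond to it, was not well above background on any array. Of 7 signal transducers, 6 were higher, beside the same 31.1% of all genes tested, and TYK2 did not pass the test. The median log2 fold change of the 7 was 3.17. STAT2, a subunit of the complex that binds the response element, rose by 3.72 on the log2 scale (standard error 0.09).

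Genes that modify GBP proteins or work with them did not move as a block. Of 8 genes for lipid modification and partners, 5 were higher, 2 were lower and 1 did not pass the test. The shares higher and lower over all genes tested were 31.1% and 31.8%. The median log2 fold change of the 8 was 0.32. The largest rises on the log2 scale were 1.31 for GSDMD (standard error 0.08) and 1.18 for CASP4 (standard error 0.07). PIM1, a kinase that phosphorylates GBP1, fell by 2.54 on the log2 scale (standard error 0.07), and ICMT, which methylates prenylated proteins, fell by 1.43 (standard error 0.10).

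Of 10 other GTPases of the dynamin superfamily, which are not classical interferon targets, 6 were higher and 4 were lower. The shares higher and lower over all genes tested were 31.1% and 31.8%. The median log2 fold change of the 10 was 0.29. DNM3, a dynamin found mainly in brain and testis, had the largest rise with 1.11 (standard error 0.09), and ATL2, an atlastin that fuses membranes of the endoplasmic reticulum, fell by 1.09 (standard error 0.09). These were smaller than the log2 fold change of MX1. Of 4 immunity-related or very large inducible GTPases, only IRGQ and GVINP1 (listed as GVIN1) were tested. GVINP1 had a change of -0.27 on the log2 scale (standard error 0.09) and IRGQ one of 0.07 (standard error 0.07), which did not pass the test. IRGM and IRGC were not well above background on any array.

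**Figure D4:**
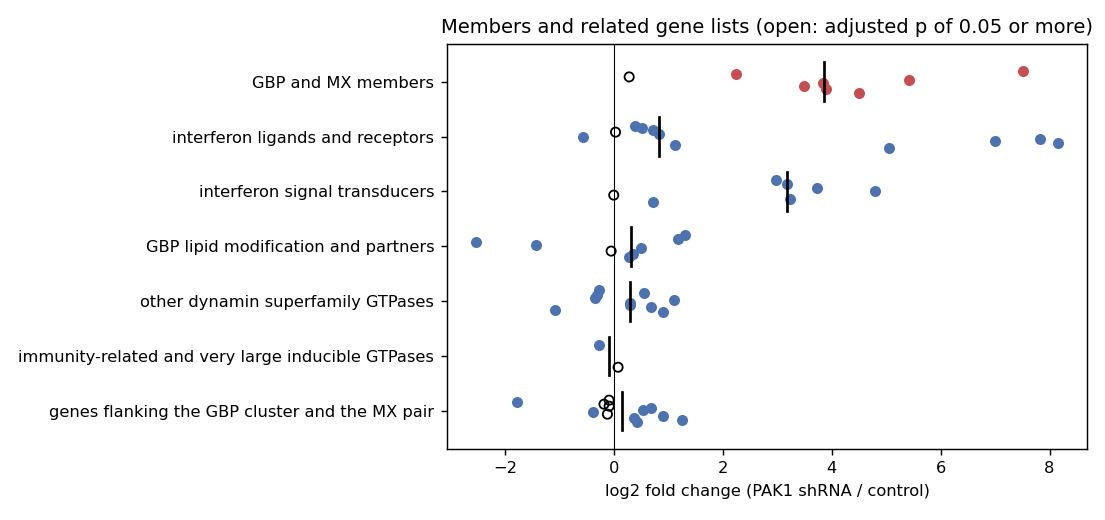
log2 fold change of PAK1 shRNA over control (horizontal axis) of the tested members and of 6 related gene lists, with a point for each gene and a line for the median of its list; open points had an adjusted p of 0.05 or more. Most members and most signal transducers lie above 2, while the other dynamin superfamily GTPases lie between -1.09 and 1.11; IL28B, not well above background in control cells, is shown at its fitted value.

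The genes whose values over the 4 arrays lay nearest to those of GBP1, by the Euclidean distance of the differences from the control mean, were VGF (distance 0.06), SIDT1 (0.08) and LOC100131733 (0.09). For MX1 they were MXD1 (0.05), TMEM92 (0.07) and LOC100130232 (0.08). With 4 arrays in 2 groups, this likeness says little more than that the log2 fold changes were of like size.

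**Figure D5:**
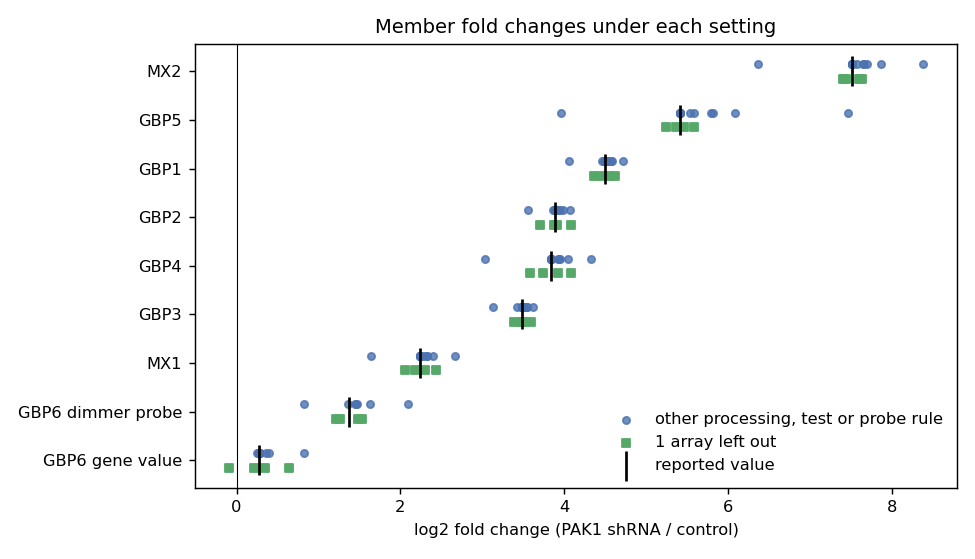
log2 fold change of PAK1 shRNA over control (horizontal axis) for each member under the reported setting (black bars), under other processing, tests or probe rules (circles) and with 1 array left out (squares). GBP1 to GBP5, MX1 and MX2 stay above 1.6 throughout, GBP5 and MX2 move most, and the GBP6 gene value, which is that of its brighter probe except for a mean over both, crosses 0 with 1 control array left out.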

How the data were processed

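The members and gene lists were chosen with earlier results of these data known. The authors deposited the spot intensity that Agilent Feature Extraction (9.5, per the submitters' processing notes) wrote for each of 4 arrays, all on 1 slide. They also deposited their own log2 values, whose centring they do not state and which served as an alternative. The authors' methods name normexp, quantile normalization and limma. Here normexp (offset 50) was fitted per array to mean signal minus local background, leaving out spots with a background outlier flag, since a fit to every spot gave a background mean of -666.3 and -739.7 for the controls but of -10.7 and -10.23 for PAK1 shRNA. Outlier spots were dropped, arrays quantile normalized and spots averaged by probe. A probe entered where Feature Extraction marked it well above background on both of a group's arrays, and the brightest stood for its gene. Tests used limma 3.58.1 (lmFit, then eBayes; R 4.3.3) with Benjamini-Hochberg adjustment over all genes tested, and were checked on simulated data. Named genes were the members, PAK1, the 2 largest changes of each list (1 gene and 1 sequence are not reported here) and the 3 patterns nearest GBP1 and MX1. Probe coordinates are hg19, and promoter coordinates GRCh38.p14. The number of arrays limits the precision.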

Additional observations from a re-analysis of the deposited data

How the results depend on the processing

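GBP1 to GBP5, MX1 and MX2 kept their direction and stayed past the threshold in all 140 values under other settings, which covered the background fit and offset, the signal column, the normalization, the filter, the flags, the probe rule, the test, the threshold, the replicate block and each array left out, and each probe apart, added after the data were seen. GBP6 by its brighter probe ranged from -0.088 to 0.64 with 1 array left out and passed the threshold without control replicate 2 (limma adjusted p = 0.00341, the lowest for that probe over its settings, the highest being 0.6 by the methods' t-test). The methods' t-test, which the study names for its statistics in general while it names limma for the arrays, called with adjustment 4418 genes higher and 4749 lower, against 6841 and 6998 with limma. With the replicate block 7016 genes were higher and 7084 lower, with 7 members among the higher. Deviations of same-numbered arrays had a correlation of 0.0092 across 27544 probes, so little deviation was shared between them. This value cannot settle whether same-numbered samples were handled together. Signal near background limits GBP5 and GBP7. The median of all genes moved to 0.12 with the 75th percentile and to 0.14 under median centring. All arrays shared 1 slide, so no slide term was possible.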
